A study of Mus musculus with 30 samples.

Results

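The genes described here mark T and B lymphocytes, and were read in the livers of mice whose hepatocytes lacked CEBPA. They were chosen by symbol, as 6 T cell genes (*Cd3d*, *Cd3e*, *Cd3g*, *Cd4*, *Cd8a* and *Cd8b1*) and 4 B lineage genes (*Cd79a*, *Cd79b*, *Ighm* and *Jchain*), and the 10 symbols each matched 1 of the 55450 genes in the count table. Knockout livers of mice that took tamoxifen over the final 10 of 22 weeks of feeding held more mRNA of the *Cd3* genes, of both *Cd8* genes, of *Cd79b* and of *Ighm*, while *Cd4* was not called. Of these, *Cd3d*, *Cd3e* and *Cd8b1* were called only in a fit without a filter on low counts. Of all genes tested in that experiment, 27.4% were higher with the filter and 18.9% without it. In the other experiments, each fitted alone in edgeR, no member passed with the filter, where 17.1% (HFCFD8W+T10D) and 16.7% (HFCFD2W) of genes did. Without it 1 of 10 passed in each (*Cd8b1* in HFCFD8W+T10D, *Ighm* in HFCFD2W), near the 10.6% and 8.96% of all genes that did. *Cd3* and *Cd8* counts after 2 weeks of diet were close to 0. The genotype effect of no member was shown to differ between experiments.

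T cells read antigen through a receptor whose chains signal through the CD3 proteins, and the coreceptors CD4 and CD8 fix which class of MHC molecule a T cell sees. B cells use a membrane antibody, often of the IgM class, that signals through CD79A and CD79B. Plasma cells secrete antibody, and the J chain joins secreted IgM or IgA into polymers. Both lineages enter the liver from the blood and gather around portal tracts in steatohepatitis.

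Liver mRNA was sequenced from 30 male mice that made up 3 experiments. Every experiment compared 5 Cre- *Cebpa* fl/fl mice with 5 Cre+ knockout mice, with 1 stranded poly(A) library per mouse. All mice carried floxed *Cebpa* on a C57BL/6N background and ate a diet rich in fat, cholesterol and fructose (HFCFD). In HFCFD2W, fed for 2 weeks, the knockout mice were *Cebpa* ΔHep with a constitutive albumin promoter-driven Cre. In HFCFD8W+T10D and HFCFD12W+T10W they were *Cebpa* ΔHep,ERT2, in which an albumin-driven Cre is active only after tamoxifen, and the *Cebpa* fl/fl mice of those experiments carry the same treatment label. Tamoxifen was given for 10 days after 8 weeks of diet in the former, and for 10 weeks after 12 weeks of diet in the latter. The age of the mice is not given in the sources used here. Cre line, diet time and tamoxifen change together between experiments and cannot be told apart, nor can any batch that follows the experiments. The tissue was whole liver, so that more lymphocytes and more mRNA per lymphocyte cannot be told apart in any value below.

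Library totals ran from 7996123 to 10257347 counts, and values are given as counts or as CPM, which divides each count by its library's TMM-adjusted total, where 3 counts in a library corresponded to 0.242 to 0.445 CPM. *Cebpa* itself was at 82.4 to 193 CPM in the 15 *Cebpa* fl/fl livers and at 3.43 to 25.1 CPM in the 15 knockout livers, with no overlap in any experiment. Genes with at least 1 count numbered 15693 to 16066 in *Cebpa* fl/fl and 17003 to 17342 in *Cebpa* ΔHep,ERT2 livers of HFCFD12W+T10W. The 8 hepatocyte genes, of which *Alb* had the highest level in TPM, RSEM's abundance per transcript length, were all present in every group. Of 7 pancreas genes, 5 or 6 had no count in any mouse of a group, and the summed level of all 7 was at most 0.946 CPM in a mouse.

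All members are protein-coding genes in the GENCODE M21 annotation (GRCm38) except *Ighm*, the constant region of the IgM heavy chain, which is listed as an immunoglobulin C gene on chromosome 12. The *Cd3* genes lie side by side on chromosome 9. *Cd3g* (minus strand, 44969572 to 44980431) and *Cd3d* (plus strand, 44981786 to 44987339) point away from each other with 1354 bases between them, and *Cd3e* (minus strand, 44998740 to 45009627) starts beyond the far end of *Cd3d*, with 11400 bases between them. On chromosome 6, *Cd8b1* (71322788 to 71337494) and *Cd8a* (71373427 to 71379173) share a strand and lie 35932 bases apart, and *Cd4* (124864692 to 124888221) lies on the same chromosome 53485518 bases from *Cd8a*. The promoters of the *Cd3* genes are shown because these genes moved together in the longest experiment. They are the 250 bases before each RefSeq start (GRCm38.p6), at chr9:44980432-44980681 (minus strand), chr9:44981536-44981785 (plus strand) and chr9:45009612-45009861 (minus strand), with capitals at E-boxes (CANNTG on either strand, the kind of site that E proteins of lymphocytes bind).
Cd3g: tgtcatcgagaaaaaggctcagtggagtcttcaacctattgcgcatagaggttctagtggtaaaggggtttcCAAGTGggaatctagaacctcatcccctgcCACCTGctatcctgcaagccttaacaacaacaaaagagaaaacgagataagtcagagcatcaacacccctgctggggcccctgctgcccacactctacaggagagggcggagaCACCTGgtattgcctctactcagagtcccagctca
Cd3d: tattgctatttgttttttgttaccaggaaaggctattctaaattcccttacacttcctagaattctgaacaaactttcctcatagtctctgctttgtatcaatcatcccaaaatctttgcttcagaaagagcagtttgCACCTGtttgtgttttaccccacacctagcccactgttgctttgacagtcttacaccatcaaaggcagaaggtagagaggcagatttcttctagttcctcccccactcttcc
Cd3e: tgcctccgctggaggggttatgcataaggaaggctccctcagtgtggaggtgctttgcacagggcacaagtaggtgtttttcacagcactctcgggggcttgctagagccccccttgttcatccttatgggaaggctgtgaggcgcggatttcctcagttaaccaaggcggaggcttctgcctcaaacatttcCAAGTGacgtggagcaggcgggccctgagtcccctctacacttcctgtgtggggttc
An E-box occurred in 66.2% of 32851 RefSeq promoters of this length, so its presence in all 3 windows is a description only. TTGCNNAA, a C/EBP-like motif searched on both strands, was in 9.56% of the promoters, and these letters did not occur in the 3 windows. The table of promoters used here held 6 of the 10 members, and of these the *Cd8a* and *Jchain* promoters held that motif.

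Per transcript length, *Ighm* and *Jchain* ranked highest in 5 of the 6 groups, and in *Cebpa* ΔHep livers of HFCFD2W *Cd4* (1.54 ± 0.782 TPM) ranked between them. *Ighm* had the highest mean level in 4 groups, from 2.23 ± 0.849 TPM (SD, n = 5) in *Cebpa* fl/fl livers of HFCFD2W to 25.7 ± 9.57 TPM in *Cebpa* ΔHep,ERT2 livers of HFCFD12W+T10W. In both groups of HFCFD8W+T10D *Jchain* ranked above it, at 5.94 ± 5.44 and 8.96 ± 5.97 TPM, but the 2 genes did not differ there by more than the larger SD. *Cd4* was the most abundant T cell gene of HFCFD2W, at 1.33 ± 0.316 TPM in *Cebpa* fl/fl livers, where each *Cd3* and *Cd8* gene was at 0.148 TPM or less. In the knockout livers of HFCFD12W+T10W the order of the means had changed. *Cd3g* was the highest member after the antibody genes at 4.08 ± 2.04 TPM, but did not differ from *Jchain* or *Cd79b* by more than the larger SD. *Cd4*, at 1.71 ± 0.486 TPM, did not differ from *Cd3e* or *Cd8b1* by more than the larger SD.

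**Figure D1:**
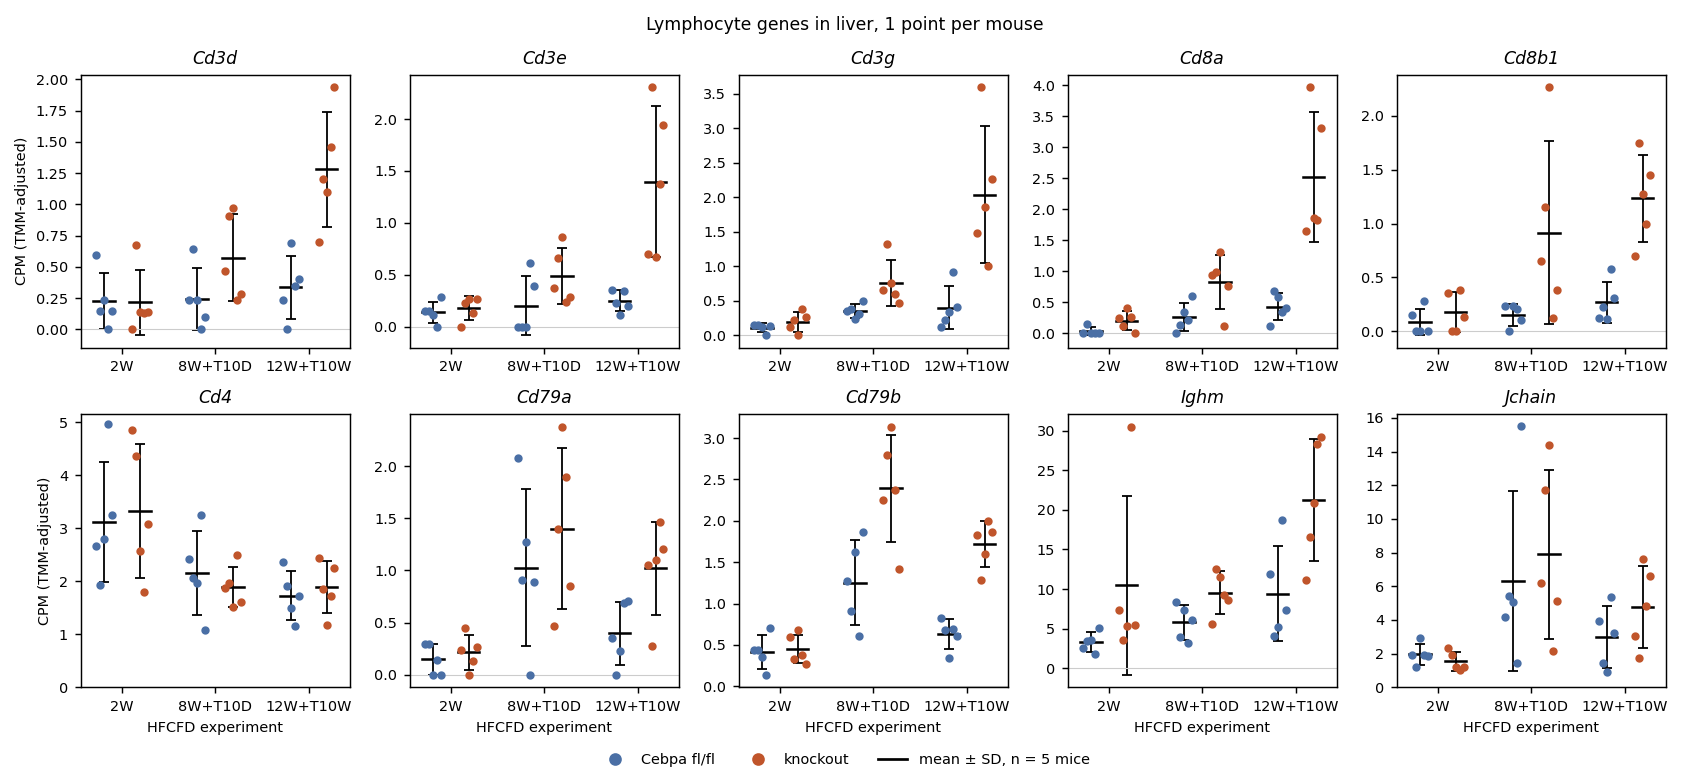
CPM (y axis, linear) of each of the 10 genes in every mouse, by experiment (x axis), with *Cebpa* fl/fl in blue, knockout in orange, and bars at the mean ± SD of 5 mice. In HFCFD12W+T10W the knockout mice lie above every *Cebpa* fl/fl mouse for *Cd3d*, *Cd3e*, *Cd3g*, *Cd8a*, *Cd8b1* and *Cd79b*, while *Cd4* overlaps in all 3 experiments.

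The first comparison asked what the loss of hepatocyte CEBPA during established disease did to these mRNAs (HFCFD12W+T10W). Genes were tested with edgeR's quasi-likelihood test after a filter on low counts, with Benjamini-Hochberg adjustment over all genes tested, and a gene passed at an adjusted p under 0.05. Of the 10 members, 6 passed the filter, of which 4 were higher and none lower in knockout livers. Of all 12463 genes tested, 27.4% were higher (51.1% passed in either direction), so that a call alone sets a gene little apart in this experiment. *Cd3g*, *Cd8a* and *Cd79b* passed the filter through the knockout group, where they are high.

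The CD3 genes encode the signaling chains of the T cell receptor. *Cd3g* had 1, 2, 3, 8 and 4 counts in the 5 *Cebpa* fl/fl livers and 17, 39, 22, 11 and 28 counts in the *Cebpa* ΔHep,ERT2 livers. Every knockout liver was above every *Cebpa* fl/fl liver, and the log2 fold change was 2.34 ± 0.46 (SE, adjusted p = 0.00103, edgeR), or 5.08-fold. *Cd3d* counts were 2, 0, 6, 3 and 4 against 8, 13, 13, 16 and 24, also without overlap. *Cd3d* did not pass the filter, and in the fit without it the log2 fold change was 1.92 ± 0.49 (adjusted p = 0.00479, edgeR).

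*Cd3e* was at 3 counts or fewer in every *Cebpa* fl/fl liver (3, 2, 1, 3 and 2) and at 8, 25, 8, 15 and 24 counts in the knockout livers. Its summed counts, 80 against 11, gave a ratio of 5.64 per effective library total, with an exact 95% counting interval of 2.99 to 11.7 that covers counting error only. Without the filter its adjusted p was 0.000562 (edgeR), and that fit called 7 members, all higher, where it called 18.9% of 21498 genes higher and 32.9% in either direction. The CD3 genes together thus stood at 4.72 ± 1.81 CPM in knockout livers and at 0.985 ± 0.439 CPM in *Cebpa* fl/fl livers, a ratio of 4.78, with the lowest knockout liver at 2.87 CPM and the highest *Cebpa* fl/fl liver at 1.61 CPM.

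*Cd8a* and *Cd8b1* encode the 2 chains of the coreceptor of cytotoxic T cells. *Cd8a* had 1, 6, 5, 3 and 4 counts in *Cebpa* fl/fl livers and 19, 43, 22, 20 and 41 in knockout livers, the largest fold of the tested members (log2 2.57 ± 0.39, adjusted p = 0.000152, edgeR), at 5.96-fold. *Cd8b1* had 1, 2, 1, 5 and 3 counts against 8, 19, 15, 11 and 18. The ranges of both genes were apart. *Cd8b1* was below the filter, and its log2 fold change without it was 2.17 ± 0.45 (adjusted p = 0.000924, edgeR).

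*Cd4*, the coreceptor of helper T cells that is also found on some dendritic cells and macrophages, did not follow the other T cell genes. Its counts were 20, 17, 13, 10 and 17 in *Cebpa* fl/fl livers and 28, 20, 14, 19 and 28 in knockout livers, with wide overlap in counts and in CPM. The log2 fold change was 0.17 ± 0.25 (adjusted p = 0.589, edgeR). This reading turned on the measure. TPM has no TMM scaling, and RSEM sets it by the transcript lengths it estimates in each library. In TPM *Cd4* was at 0.896 ± 0.245 in *Cebpa* fl/fl and 1.71 ± 0.486 in knockout livers, and the lowest knockout liver (1.29) was above the highest *Cebpa* fl/fl liver (1.23). Scaled by library total, the median gene was higher by 0.38 on the log2 scale in these knockout livers, against -0.03 with TMM. The parts of scaling and of length in the *Cd4* difference were not tested. *Cd4* held 84.4% of the summed T cell counts in *Cebpa* fl/fl livers of HFCFD2W, 50.7% in those of HFCFD12W+T10W, and 18.3% in knockout livers of HFCFD12W+T10W. Over the 30 mice, log2 levels of *Cd4* and of the summed *Cd3* genes had a Pearson r of -0.529 (-0.372 after the 6 group means were subtracted), and those of the summed *Cd8* and *Cd3* genes had 0.782 (0.136 after subtraction). These are descriptions across mice that share experiments and depth, with no test.

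**Figure D2:**
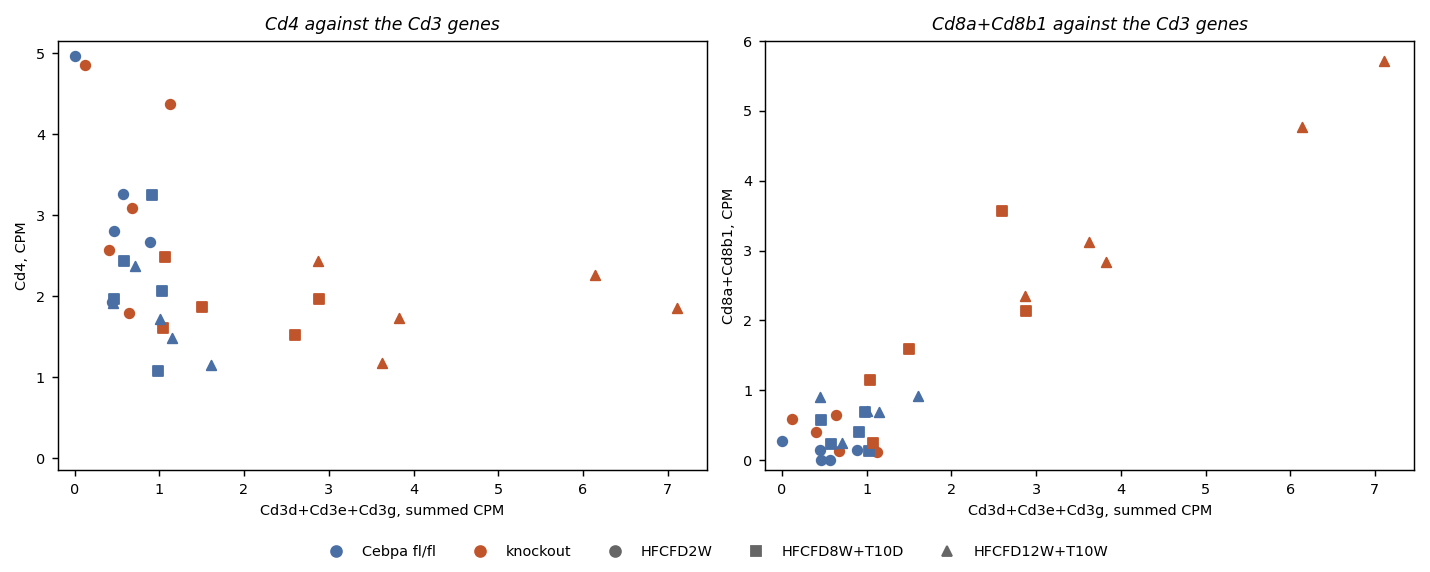
CPM of *Cd4* (left, y axis) and of *Cd8a* plus *Cd8b1* (right, y axis) against the summed CPM of *Cd3d*, *Cd3e* and *Cd3g* (x axis) in each of 30 mice, with colour for genotype and shape for experiment. The 2 mice with the most *Cd8* mRNA, at 5.72 and 4.77 CPM, were knockout livers of HFCFD12W+T10W, whereas the 3 highest *Cd4* levels, 4.37 to 4.96 CPM, were in mice of HFCFD2W, whose *Cd3* sums were at most 1.12 CPM.

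Among the B lineage genes, *Cd79b*, a signaling chain of the B cell receptor, separated the genotypes most clearly in HFCFD12W+T10W. It had 7, 6, 3, 6 and 6 counts in *Cebpa* fl/fl livers and 21, 14, 19, 22 and 23 in knockout livers. The ranges did not overlap, and the log2 fold change was 1.48 ± 0.25 (adjusted p = 0.000314, edgeR), or 2.78-fold. Its partner *Cd79a* had 3, 0, 2, 6 and 7 counts against 12, 3, 13, 16 and 15. One knockout liver, replicate 2, lay within the *Cebpa* fl/fl range, the gene was below the filter, and without it the adjusted p was 0.0654 (log2 1.35 ± 0.54, edgeR).

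*Ighm* had 100, 36, 45, 163 and 73 counts in *Cebpa* fl/fl livers and 127, 180, 246, 310 and 361 in knockout livers. It was higher in knockout livers by 1.21 ± 0.37 on the log2 scale (adjusted p = 0.0153, edgeR), with 3 of 5 knockout livers above every *Cebpa* fl/fl liver. *Jchain* had 33, 13, 8, 47 and 32 counts against 35, 19, 90, 53 and 82. Its groups overlapped, and the log2 fold change of 0.72 ± 0.45 was not called (adjusted p = 0.197, edgeR). In all, 6 of the 10 members had every knockout liver above every *Cebpa* fl/fl liver and none had the reverse, where 14.1% of the 21498 genes with any count in this experiment lay wholly above. In HFCFD8W+T10D and HFCFD2W no member lay wholly above, where 4.25% and 4.0% of genes did.

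**Figure D3:**
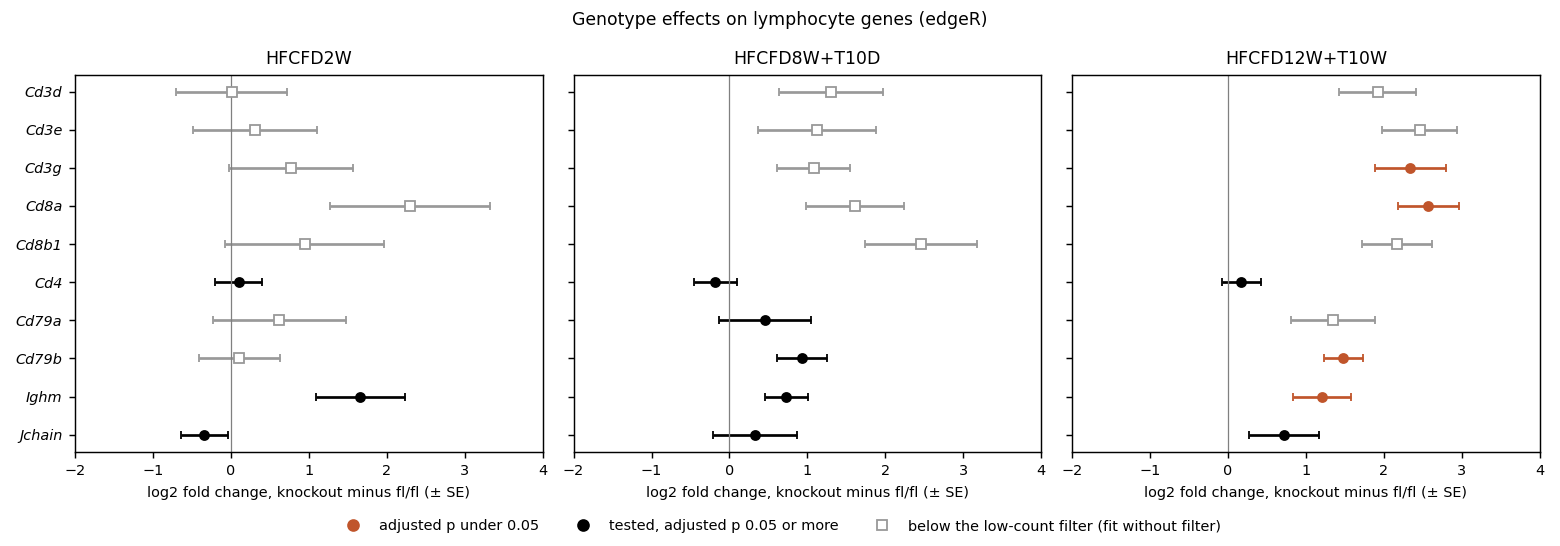
Log2 fold change of knockout over *Cebpa* fl/fl (x axis, ± SE, edgeR) for each gene (y axis) in the 3 experiments. Filled orange points passed at an adjusted p under 0.05, which in HFCFD12W+T10W were *Cd3g*, *Cd8a*, *Cd79b* and *Ighm*, black points were tested and did not pass, and open squares are genes below the low-count filter, taken from the fit without it.

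In HFCFD8W+T10D, which sampled livers 10 days after tamoxifen began, 5 members passed the filter and none passed the test (edgeR, 2 at an unadjusted p under 0.05), where 17.1% of 11990 genes did. With DESeq2 1 of the 5 members passed, *Cd79b*. *Cd79b* had 11, 7, 14, 6 and 19 counts in *Cebpa* fl/fl livers and 24, 34, 29, 20 and 15 in knockout livers, with 4 of 5 knockout livers above all *Cebpa* fl/fl livers in CPM (log2 0.93 ± 0.32, adjusted p = 0.0612, edgeR). *Ighm* counts were 72, 31, 64, 31 and 62 against 60, 153, 106, 78 and 91 (log2 0.73 ± 0.28, adjusted p = 0.0889, edgeR).

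Both *Cd79a* (18, 7, 11, 0 and 9 counts against 5, 17, 22, 16 and 9) and *Jchain* (36, 42, 44, 14 and 158 against 66, 142, 133, 18 and 54) overlapped widely. *Cebpa* fl/fl replicate 5 had the highest *Jchain* count of all 30 libraries. *Cd4* had 21, 16, 17, 32 and 11 counts against 20, 24, 14, 21 and 17 (log2 -0.18 ± 0.28, adjusted p = 0.717, edgeR).

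The *Cd3* and *Cd8* genes of HFCFD8W+T10D were below the filter. Summed over *Cd3d*, *Cd3e* and *Cd3g*, the *Cebpa* fl/fl livers had 5, 8, 4, 9 and 10 counts and the knockout livers 16, 35, 24, 9 and 11. Adjusted for library size, the sums did not overlap, but the closest mice were at 1.03 and 1.04 CPM. *Cd8b1* was at 2 counts or fewer in *Cebpa* fl/fl livers (2, 0, 2, 2 and 1) and at 7, 14, 21, 1 and 4 in knockout livers, and its adjusted p without the filter was 0.032 (edgeR), the only member that this fit called, where 10.6% of genes passed. The summed counts, 47 against 7, gave a ratio of 5.92 with a 95% counting interval of 2.66 to 15.5. *Cd8a* had 0, 1, 3, 2 and 6 counts against 10, 12, 12, 1 and 8 (adjusted p = 0.121 without the filter, edgeR). Knockout replicate 4 was the lowest of its group for both *Cd8* genes and for *Jchain*, and it also had the lowest count of the leukocyte gene *Ptprc* (159), whereas knockout replicate 2 had the highest (732). The part of these libraries in the group difference was not tested beyond leaving each out.

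After 2 weeks of diet, in HFCFD2W, the T cell receptor genes were near the limit of detection in both genotypes. *Cd3e*, *Cd3g*, *Cd8a* and *Cd8b1* were at 3 counts or fewer in all 10 livers, so that no fold is given. *Cd3d* reached 4 counts in 1 *Cebpa* fl/fl liver and 6 counts in 1 *Cebpa* ΔHep liver, and was at 2 or fewer in the other livers. By contrast *Cd4* had 18, 13, 24, 36 and 23 counts in *Cebpa* fl/fl and 41, 39, 19, 14 and 23 in *Cebpa* ΔHep livers (log2 0.10 ± 0.30, adjusted p = 0.846, edgeR), and its groups overlapped.

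Of the 10 members, 3 were tested in HFCFD2W and none passed (edgeR, 1 at an unadjusted p under 0.05, and 1 of 3 with DESeq2), where 16.7% of 11068 genes passed. Without the filter 1 passed, *Ighm* (adjusted p = 0.0345, edgeR), where 8.96% of genes did. *Ighm* came nearest, with 17, 23, 31, 13 and 36 counts in *Cebpa* fl/fl livers and 62, 32, 40, 239 and 41 in *Cebpa* ΔHep livers. The log2 fold change of 1.66 ± 0.57 (adjusted p = 0.0632, edgeR) rested in part on the *Cebpa* ΔHep liver with 239 counts, replicate 5, and was 0.72 without it. That liver had 8 counts of *Jchain*, the lowest of its group, and 3 of *Cd79b*. *Jchain* had 13, 8, 25, 14 and 13 counts against 20, 17, 9, 8 and 9 (log2 -0.34 ± 0.30, adjusted p = 0.466, edgeR), and *Cd79a* and *Cd79b* were at 0 to 5 counts in every liver.

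To ask whether genotype effects differed between experiments, interaction contrasts were tested in 1 edgeR fit of all 30 mice, in which *Cd3e* alone of the 10 members did not pass the filter. None of the 9 passed in any of the 3 contrasts, where 11.3% of 12964 genes differed between HFCFD8W+T10D and HFCFD2W, 10.5% between HFCFD12W+T10W and HFCFD8W+T10D, and 30.7% between HFCFD12W+T10W and HFCFD2W. At an unadjusted p under 0.05 there were 0, 0 and 1 members, and DESeq2 called none. The effect on *Cd79b* was larger in HFCFD12W+T10W than in HFCFD2W by 1.31 ± 0.54 on the log2 scale (adjusted p = 0.0742, edgeR). For *Cd3g* the effect in HFCFD12W+T10W exceeded that in HFCFD8W+T10D by 1.2 ± 0.65 (adjusted p = 0.255, edgeR). Standard errors reached 1.56 where counts were near 0, so that at this depth a difference of several-fold could be missed. A member's genotype effect called in HFCFD12W+T10W and not in the earlier experiments is therefore not shown to differ between them. Some genes of the other lymphocyte lists did pass this test. Between HFCFD12W+T10W and HFCFD2W, their share in the T and B cell lists was below the 30.7% of all genes. Of 11 tested T cell genes outside the members, 2 had a larger effect in HFCFD12W+T10W than in HFCFD2W, *Trbc2*, a constant region of the receptor's beta chain (log2 difference 3.29 ± 0.82, adjusted p = 0.00319), and *Tcf7*, a transcription factor of T cells (1.76 ± 0.28, adjusted p = 3.18e-05, both edgeR). *Trbc2* also differed between HFCFD8W+T10D and HFCFD2W (2.6 ± 0.83, adjusted p = 0.0411), and *Tcf7* between HFCFD12W+T10W and HFCFD8W+T10D (1.01 ± 0.27, adjusted p = 0.0171, both edgeR). Of 11 other B cell genes 1 differed between HFCFD12W+T10W and HFCFD2W, *Cd72* (1.68 ± 0.44, adjusted p = 0.00488, edgeR), as did the plasma cell gene *Derl3* (2.75 ± 0.86, adjusted p = 0.016, edgeR).

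The same fit compared livers of 1 genotype across experiments, where diet time, treatment and any batch cannot be told apart. From HFCFD2W to HFCFD8W+T10D, *Cebpa* fl/fl livers rose in 4 of 9 tested members and fell in none, where 43.6% of all tested genes differed in either direction. These were *Cd79a* (5 to 45 summed counts, ratio 7.27, 95% counting interval 2.9 to 23.5), *Cd79b* (log2 1.58 ± 0.36, adjusted p = 0.000842, edgeR), *Jchain* (log2 1.68 ± 0.55, adjusted p = 0.014, edgeR) and *Cd8a*, with 1 summed count in HFCFD2W and 12 in HFCFD8W+T10D. From HFCFD8W+T10D to HFCFD12W+T10W, *Cd79b* was lower in *Cebpa* fl/fl livers (log2 -0.99 ± 0.32, adjusted p = 0.0436, edgeR), the only member of 9 that passed, where 11.4% of all genes did.

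From HFCFD2W to HFCFD12W+T10W, 3 members were higher in *Cebpa* fl/fl livers (*Cd3g*, *Cd8a* and *Ighm*) and *Cd4* was lower by 0.85 ± 0.29 on the log2 scale (adjusted p = 0.0218, edgeR), where 39.1% of genes differed. *Ighm* was higher by 1.51 ± 0.51 (adjusted p = 0.0198, edgeR). The *Cd3g* and *Cd8a* counts behind their calls were small, with 4 and 1 summed counts in HFCFD2W against 18 and 19. In *Cebpa* ΔHep,ERT2 livers, HFCFD12W+T10W exceeded HFCFD8W+T10D for *Cd3g* (log2 1.38 ± 0.36, adjusted p = 0.00433), *Cd8a* (1.58 ± 0.40, adjusted p = 0.00376) and *Ighm* (1.15 ± 0.42, adjusted p = 0.039, all edgeR), where 27.7% of genes differed. *Cd3g* and *Cd8a* passed the filter of this fit through the knockout livers of HFCFD12W+T10W, the group that this contrast asks about. Without the filter their adjusted p-values were 0.0095 and 0.00626 (edgeR). The *Ighm* call was lost with DESeq2 (adjusted p = 0.0533) and without any 1 of 6 knockout livers (adjusted p up to 0.101, edgeR). *Cd4* differed by 0.01 ± 0.29 there, and *Cd79b* by -0.47 ± 0.25 (adjusted p = 0.173, edgeR). The highest group means of *Cd79a*, *Cd79b* and *Jchain* were thus in HFCFD8W+T10D, and those of the *Cd3* genes, the *Cd8* genes and *Ighm* in HFCFD12W+T10W, all in knockout livers.

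Because single members had few counts, they were also summed by lineage, as a description without a test. The 5 T cell genes other than *Cd4* summed to 0.588 ± 0.281 CPM in *Cebpa* fl/fl and 0.967 ± 0.267 CPM in *Cebpa* ΔHep livers of HFCFD2W (ratio 1.64). In HFCFD8W+T10D they summed to 1.2 ± 0.322 and 3.55 ± 2.01 CPM (ratio 2.96), with 4 of 5 knockout livers above all *Cebpa* fl/fl livers. In HFCFD12W+T10W the sums were 1.68 ± 0.586 and 8.47 ± 3.23 CPM (ratio 5.05), with all 5 above. With *Cd4* included the ratios were smaller, at 1.16, 1.62 and 3.04.

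The B lineage sum was set largely by *Ighm*, which held 39.6% to 82.1% of it in a group. All 4 genes summed to 5.81 ± 1.45 and 12.7 ± 10.9 CPM in HFCFD2W (ratio 2.18, and 1.35 without knockout replicate 5). The sums were 14.4 ± 7.03 and 21.2 ± 8.04 CPM in HFCFD8W+T10D (ratio 1.47) and 13.4 ± 8.02 and 28.7 ± 9.8 CPM in HFCFD12W+T10W (ratio 2.13), with overlap in each experiment. *Cd79a* and *Cd79b* alone gave ratios of 1.18, 1.66 and 2.67, and did not overlap in HFCFD12W+T10W (1.38 CPM in the highest *Cebpa* fl/fl liver and 1.57 CPM in the lowest knockout liver).

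**Figure D4:**
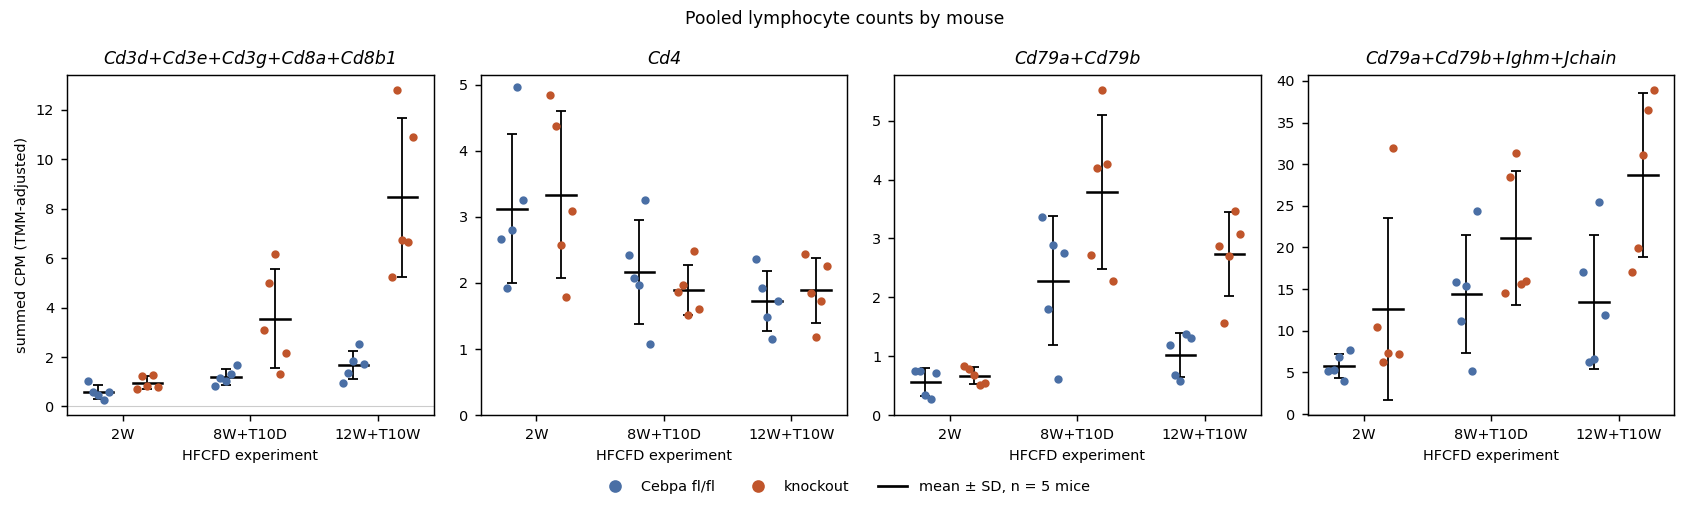
Summed CPM (y axis, linear) by mouse and experiment (x axis) for the T cell genes without *Cd4*, for *Cd4*, for *Cd79a* plus *Cd79b*, and for all 4 B lineage genes, with bars at the mean ± SD of 5 mice. The knockout livers of HFCFD12W+T10W stand apart in the first panel (8.47 ± 3.23 against 1.68 ± 0.586 CPM), and 1 knockout liver of HFCFD2W reaches 32.0 CPM in the last.

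General leukocyte mRNA moved with genotype in the same experiments. All 5 tested genes of a list of 6 that most leukocytes express were higher in knockout livers of HFCFD8W+T10D and of HFCFD12W+T10W, and 1 of 5 (*Laptm5*, log2 0.59 ± 0.12) in HFCFD2W. Of all genes tested, 17.1%, 51.1% and 16.7% passed in either direction in the same order. *Ptprc*, which encodes CD45, was higher by 1.25 ± 0.25 and 1.35 ± 0.18 on the log2 scale (adjusted p = 0.00536 and 4.93e-05, edgeR). Set against *Ptprc*, the T cell genes without *Cd4* had 9.19 to 15.7 counts per 100 *Ptprc* counts in *Cebpa* fl/fl livers of HFCFD12W+T10W and 15.3 to 31.8 in knockout livers, ranges that overlapped through 1 knockout liver. In HFCFD8W+T10D the ranges were 5.15 to 11 and 6.92 to 17.6, and in HFCFD2W, where *Ptprc* itself had 19 to 52 counts, 8.7 to 22.6 and 17.1 to 29.7. *Cd79a* plus *Cd79b* ran from 4.07 to 15.2 per 100 *Ptprc* counts in *Cebpa* fl/fl and from 3.89 to 10.2 in knockout livers of HFCFD12W+T10W, with no separation. *Cd4* ran from 53.3 to 157 per 100 *Ptprc* counts in *Cebpa* fl/fl and from 26.9 to 117 in knockout livers of HFCFD2W. In HFCFD12W+T10W it ran from 7.14 to 30.3 in *Cebpa* fl/fl and from 4.23 to 7.16 in knockout livers. The part of overall leukocyte content in the member changes was not tested.

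**Figure D5:**
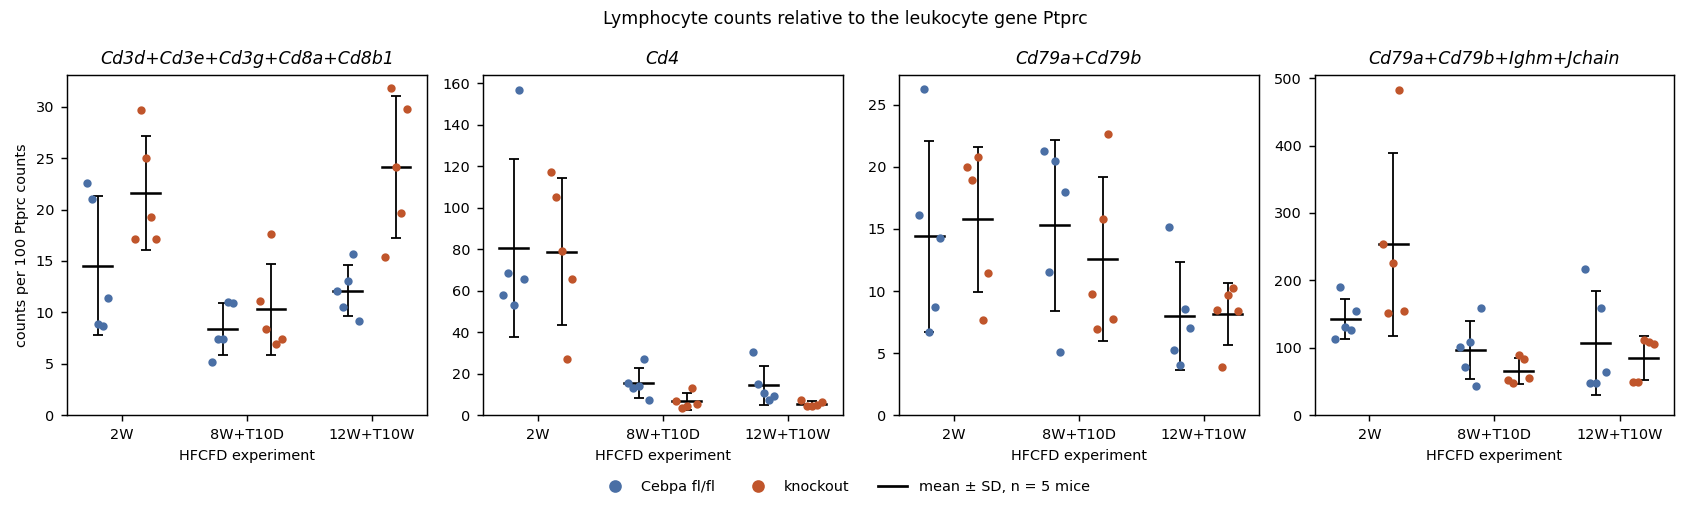
Counts per 100 *Ptprc* counts (y axis, linear) by mouse and experiment (x axis) for the same sums of genes, with bars at the mean ± SD of 5 mice. In HFCFD12W+T10W the T cell genes without *Cd4* were at 12.1 ± 2.49 in *Cebpa* fl/fl and 24.1 ± 6.87 in knockout livers, and *Cd79a* plus *Cd79b* were at 8.02 ± 4.34 and 8.12 ± 2.49.

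Other genes of T cells were read from a list of 25. In HFCFD12W+T10W, 7 passed the filter, of which 5 were higher and 1 lower in knockout livers. Of all genes tested there, 27.4% were higher. The median log2 fold change of the 7 was 1.45, against 0.01 over all genes tested. This median does not describe the list of 25, since a gene of low count such as *Trac* (below) passed the filter through the knockout group. The largest changes were in *Il7r*, the receptor for the survival cytokine IL-7 (log2 2.51 ± 0.30, adjusted p = 1.99e-05, edgeR), *Lck*, the kinase that starts receptor signaling (2.21 ± 0.44, adjusted p = 0.00105), and *Thy1*, a surface protein also made by fibroblasts (1.73 ± 0.28, adjusted p = 0.000229). *Trac*, the constant region of the receptor's alpha chain, rose by 1.45 ± 0.36 (adjusted p = 0.00501). Without the filter 15 of 25 were higher and 1 lower, where 18.9% of all genes were higher.

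*Zap70*, a kinase downstream of CD3, was the most abundant gene of that list, at 6.58 ± 1.80 TPM in *Cebpa* fl/fl livers of HFCFD2W where each *Cd3* gene was at 0.148 TPM or less. It was lower in knockout livers of all 3 experiments, by -0.82 ± 0.24, -0.84 ± 0.20 and -0.39 ± 0.13 on the log2 scale (adjusted p = 0.0362, 0.0118 and 0.02, edgeR). These values depend on scaling, since library totals without TMM would move the median gene by 0.19 in HFCFD8W+T10D and by 0.38 in HFCFD12W+T10W, the latter as large as the *Zap70* change itself. In HFCFD8W+T10D and HFCFD2W no gene of the list was higher, with 5 and 3 tested, and the counts without the filter were also 0.

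Of 21 other B cell genes, 8 passed the filter in HFCFD12W+T10W, which a gene high in knockout livers alone can pass. Of the 8, 7 were higher and none lower (median log2 1.35), where 27.4% of all genes tested were higher. These included *Cr2*, a complement receptor of mature B cells (log2 2.42 ± 0.38, adjusted p = 0.000172), *Cd72*, a B cell coreceptor (2.36 ± 0.23, adjusted p = 4.62e-06), and *Blnk*, an adaptor of B cell receptor signaling (2.37 ± 0.25, adjusted p = 7.65e-06, all edgeR). *Blnk* was also the one gene of the list that was higher in HFCFD2W (1.71 ± 0.18, adjusted p = 6.68e-05), where *Cd79a* and *Cd79b* were at 0 to 5 counts. In HFCFD8W+T10D 3 of 7 were higher, *Blnk*, *Cd72* and *Btk*, where 17.1% of all genes tested passed in either direction. *Igkc*, the kappa light chain (log2 1.10 in HFCFD12W+T10W, adjusted p = 0.0468, edgeR) and the most abundant gene of the list, was at 27.9 ± 17 TPM in *Cebpa* fl/fl and 78.2 ± 39.0 TPM in knockout livers of HFCFD12W+T10W, and its log2 level followed *Jchain* over the 30 mice (r = 0.918, and 0.879 after group means were subtracted) more closely than *Ighm* (0.451 and 0.343).

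Of 12 plasma cell genes 6 were tested in HFCFD12W+T10W and 2 were higher, *Tnfrsf13b* (log2 1.94 ± 0.34) and *Prdm1* (1.59 ± 0.33), while none of 5 and none of 2 passed in HFCFD8W+T10D and HFCFD2W (edgeR). The IgA heavy chain gene *Igha*, the most abundant of the list, was highest in HFCFD8W+T10D, at 27.7 ± 29.8 TPM in *Cebpa* fl/fl and 41.5 ± 24.3 TPM in knockout livers. Of 17 genes of cytotoxic and NK cells, 3 were tested in HFCFD12W+T10W and 2 were higher. They were *Ccl5* (log2 2.13 ± 0.39), a chemokine of activated lymphocytes, and *Nkg7* (1.91 ± 0.45), a granule protein. *Ccl5* was also higher in HFCFD8W+T10D (1.37 ± 0.34). Of all genes tested in HFCFD12W+T10W 27.4% were higher, and a gene high in knockout livers alone can pass the filter.

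Genes that draw or hold lymphocytes were read as a list of 16. In HFCFD12W+T10W, 12 were tested, of which 8 were higher and 1 lower, where 27.4% of all genes tested were higher. *Ltb*, a cytokine of lymphoid tissue made by lymphocytes, rose by 2.84 ± 0.33 (adjusted p = 1.91e-05, edgeR), and *Ccl5* as above. *Cxcl13*, the chemokine that recruits B cells to follicles, fell by 3.05 ± 0.75 on the log2 scale (adjusted p = 0.00427, edgeR) in the same livers in which *Cd79b* and *Cr2* were higher. In HFCFD8W+T10D 4 of 9 were higher, led by *Cxcl10* (1.41 ± 0.36), and in HFCFD2W 1 of 6, the adhesion molecule *Vcam1* (0.90 ± 0.16). Of all genes tested, 17.1% and 16.7% passed there in either direction. *Cxcl12* was the most abundant of the list in every group, from 70.7 ± 12.9 to 142 ± 12.8 TPM.

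All 6 tested chemokine receptors of a list of 8 were higher in knockout livers of HFCFD12W+T10W, among them *Ccr7* (log2 2.49 ± 0.36), *Cxcr6* (2.35 ± 0.59) and *Cxcr4* (2.00 ± 0.35). Of all genes tested there 27.4% were higher, and a gene high in knockout livers alone can pass the filter. In HFCFD8W+T10D *Cxcr4* was also higher (1.21 ± 0.35).

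Markers of other cells moved too, in fits where 51.1% (HFCFD12W+T10W), 17.1% (HFCFD8W+T10D) and 16.7% (HFCFD2W) of all genes passed in either direction. A gene high in knockout livers alone can pass the filter. Of 10 MHC class II genes, which present antigen to CD4 T cells and are expressed by B cells, dendritic cells and macrophages, 8 of 9 tested were higher in HFCFD12W+T10W, 7 of 7 in HFCFD8W+T10D and 1 of 6 in HFCFD2W. *H2-Eb1* rose by 2.32 ± 0.15, 1.11 ± 0.26 and 0.54 ± 0.16 in the same order. Lipid-associated macrophage genes were higher in 8 of 8, 8 of 8 and 3 of 4 tested, with *Gpnmb* at 5.56 ± 0.30 in HFCFD12W+T10W. Resident Kupffer cell genes went both ways in HFCFD12W+T10W, with 2 higher and 3 lower of 8 (*Cd163* fell by 3.58 ± 0.46), and were 2 higher and none lower in the other experiments. The most abundant MHC class II list gene was *Cd74* (609 ± 152 TPM in knockout livers of HFCFD12W+T10W), and the most abundant macrophage genes were *Lyz2* (443 ± 97.9 TPM there) and, for Kupffer cells, *Cd5l*. Dendritic cell genes were higher in 4 of 6 tested in HFCFD12W+T10W, led by *Clec9a* (2.12 ± 0.38), with 1 higher and 1 lower of 4 in HFCFD8W+T10D and 1 higher of 2 in HFCFD2W.

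Red blood cell genes, a measure of blood in the sample, were higher in 4 of 5 in HFCFD8W+T10D (*Hbb-bs* 1.26 ± 0.36) and in 3 of 5 in HFCFD12W+T10W (*Hbb-bs* 0.90 ± 0.28, with *Alas2* lower by -1.22 ± 0.23), and in HFCFD2W none was higher and *Alas2* was lower (-1.14 ± 0.08). The summed level of the 5 ran from 244 to 620 CPM in *Cebpa* fl/fl and from 439 to 1060 CPM in knockout livers of HFCFD12W+T10W. The part of blood left in the tissue was not tested. Hepatocyte genes fell in 2 of 8 in HFCFD12W+T10W, *Alb* (-1.10 ± 0.12) and *Fgb* (-0.61 ± 0.11), in 2 of 8 in HFCFD8W+T10D and in 1 of 8 in HFCFD2W. Of all genes tested, 51.1%, 17.1% and 16.7% passed in either direction in the same order.

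Likeness was read over 30 mice among 12099 other genes with a mean of at least 1 CPM, with no test, since the mice share experiments and depth. The log2 sum of all 6 T cell genes was most like *Muc1* (Pearson r = 0.907, and 0.612 after the 6 group means were subtracted), *Tgfbr1* (0.889 and 0.602), *Tpm1* (0.864 and 0.584), *Spint1* (0.86 and 0.435) and *Prom1* (0.854 and 0.245). The sum of the 4 B lineage genes was most like *Ltb* (0.826 and 0.559), *Oasl2* (0.814 and 0.598), *Pqlc3* (0.812 and 0.543), *Clstn1* (0.811 and 0.608) and *S100a11* (0.802 and 0.585). In a reading chosen after its values were seen, *Cd4* alone was most like *Anks1* (0.793 and 0.678), *Elac2* (0.781 and 0.609) and *Gbf1* (0.772 and 0.561), and the other 5 T cell genes were most like *Rab31* (0.926 and 0.512), *Ptafr* (0.919 and 0.559) and *Fam49b* (0.916 and 0.682). The T cell genes without *Cd4* and the B lineage genes had r = 0.73 with each other and 0.315 after the group means were subtracted.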

How the data were processed

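Livers of 30 mice were profiled as stranded poly(A) RNA-Seq, 1 library per mouse and 5 mice in each of 6 groups. Per the labels, the authors' processing notes name Trimmomatic 0.36, STAR 2.5.1, Picard 1.84, RSEM 1.2.22 and DESeq2, with no order or role. The authors deposited RSEM expected counts per gene, unnormalized, and TPM per library. The series table and the library files differed in 0 values (tolerance 0.01), and all 55450 gene identifiers are those of GENCODE M21. The authors' filtered CPM and RPKM tables were not used. RSEM can divide a read among genes, and 1 value of the members was not whole before rounding, against 11.3% of all nonzero values.

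The expected counts were made integers by rounding. Genes kept by filterByExpr were scaled by TMM, and genotypes were compared one experiment at a time in edgeR 4.0.16 (R 4.3.3), using its quasi-likelihood test. Adjusted p-values are Benjamini-Hochberg values across every gene in the fit. The SE is the log2 fold change divided by the square root of F. Differences between experiments were fitted on all 30 mice. Levels of single genes are CPM on a TMM scaling of all 30 libraries, levels between genes are TPM, and log2 levels used a prior count of 2. At totals of 7996123 to 10257347 counts, 3 counts in a library was taken as the floor, intervals cover counting error only, and no fold is given where both groups are at or below it.

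The members and the 14 other gene lists were chosen with earlier results of these data known. All members are named; from each other list up to 3 genes per comparison with the largest change among those that passed, and the most abundant by TPM; and the 5 genes most like each lineage sum. One gene that this rule names is not reported here. *Trac* and *Igkc*, and sums other than the 6 T cell, 4 B lineage and 2 *Cd79* genes, were chosen after values were seen. Alternatives were no filter, upper quartile normalization, DESeq2 1.42.0, a joint fit, a replicate block, leaving out each mouse, a fold change over 2, and, for sums, other scalings and leaving out the most abundant gene. The fits were tested on simulated data. No 2 libraries of a group agreed within sampling noise (lowest chi-square 7.45 per gene), and each was counted once.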

Additional observations from a re-analysis of the deposited data

Results flagged for a closer look

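In 102 sets of 5 mice (10 genes and 7 sums in 6 groups), 2 held a mouse that lay far from the others on the log2 scale by Dixon's ratio of gap to range, whose 95% critical value is 0.71 for 5 mice. Chance flags about 1 set in 20. *Cd79a* in *Cebpa* ΔHep,ERT2 replicate 2 of HFCFD12W+T10W was low (3 counts, ratio 0.766), while the same liver had the most *Cd3g* and *Cd8a* counts of its group. The summed *Cd8* genes in *Cebpa* fl/fl replicate 1 of HFCFD12W+T10W were low (2 counts, ratio 0.735). No member passed the test of a difference in genotype effect between experiments.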

How the results depend on the processing

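The 4 members called in HFCFD12W+T10W (*Cd3g*, *Cd8a*, *Cd79b* and *Ighm*) passed under every alternative and without any 1 mouse. Counts of members called moved elsewhere, and the cause was not tested. In HFCFD2W the count was 1 in place of 0 without the filter, with DESeq2 and in the joint fit (*Ighm* each time). In HFCFD8W+T10D it was 1 without the filter (*Cd8b1*), 1 with DESeq2 (*Cd79b*) and 3 in the joint fit (*Cd79b*, *Cd8a* and *Cd8b1*). In HFCFD12W+T10W it was 7 without the filter, which tests more members. With upper quartile scaling 1 member (*Cd79b*) differed between HFCFD12W+T10W and HFCFD2W. The call of *Cd79b* between *Cebpa* fl/fl livers of HFCFD12W+T10W and HFCFD8W+T10D fell to 0 without the filter and with DESeq2. Other calls between experiments were lost too: *Cd8a* (HFCFD8W+T10D against HFCFD2W, *Cebpa* fl/fl) without the filter (adjusted p = 0.0552, edgeR), *Cd3g* (HFCFD12W+T10W against HFCFD2W, *Cebpa* fl/fl) without the filter (0.072, edgeR) and with DESeq2, and *Ighm* between knockout livers with DESeq2 (0.0533).

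Without single mice the counts ran from 0 to 1 in HFCFD2W (1 without *Cebpa* ΔHep replicate 3), from 0 to 1 in HFCFD8W+T10D (1 without knockout replicate 1, knockout replicate 5 or *Cebpa* fl/fl replicate 5) and from 4 to 7 in HFCFD12W+T10W (7 without *Cebpa* fl/fl replicate 4 or 5). The difference between HFCFD12W+T10W and HFCFD2W ran from 0 to 1 (1 without *Cebpa* fl/fl replicate 4 of HFCFD2W). Among *Cebpa* fl/fl livers, HFCFD8W+T10D against HFCFD2W ran from 2 to 4 (2 without replicate 5 of HFCFD8W+T10D), HFCFD12W+T10W against HFCFD8W+T10D from 0 to 1 (0 without any of 7 mice), and HFCFD12W+T10W against HFCFD2W from 1 to 4 (1 without replicate 4 of either experiment, 2 without replicate 3 of HFCFD12W+T10W). Between *Cebpa* fl/fl livers of HFCFD12W+T10W and HFCFD2W, *Cd3g* was lost without any of 8 mice (edgeR adjusted p up to 0.178), *Cd4* without replicate 3 or 4 of HFCFD12W+T10W or replicate 4 of HFCFD2W (up to 0.108), and *Ighm* without replicate 4 of either (up to 0.0908). Between HFCFD8W+T10D and HFCFD2W, *Cd8a* was lost without any of 6 mice (up to 0.141) and *Jchain* without replicate 5 of HFCFD8W+T10D (0.129). *Ighm* between knockout livers was lost without replicate 1, 4 or 5 of HFCFD8W+T10D or 3, 4 or 5 of HFCFD12W+T10W.

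The sum of the T cell genes gave 1.64 in HFCFD2W and 2.96 in HFCFD8W+T10D without *Cd4*, 2.21 in HFCFD8W+T10D from TPM, and in HFCFD12W+T10W 4.08 by library total, 4.22 from TPM and 5.05 without *Cd4*. The B lineage sum gave 0.876 in HFCFD2W without *Ighm*.

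Some log2 differences, none called, changed sign without single mice. *Cd4* ran from -0.069 to 0.325 in HFCFD2W, from -0.359 to 0.018 in HFCFD8W+T10D, from -0.202 to 0.199 for the difference of HFCFD12W+T10W and HFCFD2W, and from -0.087 to 0.149 between knockout livers of the inducible experiments. Differences of genotype effects ran from -0.602 to 0.242 for *Cd79a* (HFCFD8W+T10D minus HFCFD2W). For HFCFD12W+T10W minus HFCFD8W+T10D they ran from -0.119 to 1.007 (*Cd3d*), from -0.576 to 0.307 (*Cd8b1*) and from -0.285 to 0.711 (*Jchain*). For HFCFD12W+T10W minus HFCFD2W they ran from -1.456 to 0.508 (*Cd8a*) and from -0.721 to 0.442 (*Ighm*). Between *Cebpa* fl/fl livers, *Cd3d* ran from -0.657 to 0.69 (HFCFD8W+T10D minus HFCFD2W) and *Cd3g* from -0.336 to 0.391 (HFCFD12W+T10W minus HFCFD8W+T10D).

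In the fit with a replicate block, 0, 0 and 4 members passed in HFCFD2W, HFCFD8W+T10D and HFCFD12W+T10W, and no call changed. Mice with the same number did not deviate together (r from -0.231 to 0.184 over 2000 genes), so the numbers were not taken as pairs. Depth limits the T cell genes most, with counts at or near the floor of 3 in HFCFD2W.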
